A study of Homo sapiens with 9 samples.

Results

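The common fragile site FRA14C lies in the chromosome band 14q24.1, which spans chr14:67400001-69800000 in the GRCh38 (hg38) genome, 2.4 Mb in all, and carries the long gene RAD51B. Its members are the broad γH2AX peaks that overlap these coordinates in any of 8 peak lists, and there were 759 of them among 213467 peaks. The band was selected on its peak counts relative to the autosomal mean in earlier results of these data, so the counts per list, per 100 kb and per gene are given as a description, with no test. The lists came from chromatin immunoprecipitation and sequencing (ChIP-seq) of γH2AX in an established human B-lymphoblastoid cell line, labelled GM09027A and named GM07027 in the accompanying article. Cells were untreated, or treated for 24 h with 0.1 µg/mL aphidicolin (APH), 2 mM hydroxyurea (HU) or 200 µM methyl methanesulfonate (MMS), with 2 independent ChIP experiments in each group. All groups are the same single line, and no gene was altered in any of them.

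γH2AX is the phosphorylated form of the histone variant H2AX, which spreads over chromatin around DNA breaks and stalled replication forks. Common fragile sites are regions that tend to break or form gaps when DNA replication is slowed. APH inhibits replicative DNA polymerases, HU depletes deoxynucleotides, and MMS methylates DNA bases. RAD51B encodes a protein that acts in homologous recombination, and the gene is a recurrent rearrangement partner of HMGA2 in uterine leiomyoma.

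The sequences below are the stretches common to the peaks of both replicates at sites with the highest mean fold enrichment in the band, and they show which DNA the replicated peaks covered. For peaks sharing over 300 bases, 300 are given. They are the plus strand of the hg38 reference, read 5′ to 3′, and capitals mark bases covered by peaks of at least 5 of the 8 lists. Only 1 stretch of 74 bp in the band reached 5 lists, and no base reached more.
Untreated and HU, RAD51B intron, chr14:68715412-68715612: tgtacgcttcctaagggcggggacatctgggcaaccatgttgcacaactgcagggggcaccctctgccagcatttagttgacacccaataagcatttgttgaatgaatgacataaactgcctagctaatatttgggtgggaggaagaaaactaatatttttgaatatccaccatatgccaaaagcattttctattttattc
APH, HU and MMS, RAD51B intron, chr14:68660996-68661295: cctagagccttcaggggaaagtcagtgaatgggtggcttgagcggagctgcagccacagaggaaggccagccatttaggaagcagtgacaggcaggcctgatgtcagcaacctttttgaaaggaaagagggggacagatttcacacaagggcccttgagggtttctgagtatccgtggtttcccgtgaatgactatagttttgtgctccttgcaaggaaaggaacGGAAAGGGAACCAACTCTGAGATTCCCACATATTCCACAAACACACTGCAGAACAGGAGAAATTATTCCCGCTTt
APH and HU, ZFP36L1 to ACTN1, chr14:68823199-68823362: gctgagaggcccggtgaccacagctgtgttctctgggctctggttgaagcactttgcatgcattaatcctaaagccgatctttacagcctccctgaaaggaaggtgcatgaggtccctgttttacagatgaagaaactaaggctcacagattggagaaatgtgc
HU strongest, ZFP36L1 to ACTN1, chr14:68814064-68814277: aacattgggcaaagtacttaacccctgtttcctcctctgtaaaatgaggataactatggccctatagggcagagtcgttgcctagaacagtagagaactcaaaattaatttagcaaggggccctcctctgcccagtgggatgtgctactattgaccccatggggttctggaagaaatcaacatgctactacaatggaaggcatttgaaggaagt
HU second, ZFP36L1 to ACTN1, chr14:68817868-68818167: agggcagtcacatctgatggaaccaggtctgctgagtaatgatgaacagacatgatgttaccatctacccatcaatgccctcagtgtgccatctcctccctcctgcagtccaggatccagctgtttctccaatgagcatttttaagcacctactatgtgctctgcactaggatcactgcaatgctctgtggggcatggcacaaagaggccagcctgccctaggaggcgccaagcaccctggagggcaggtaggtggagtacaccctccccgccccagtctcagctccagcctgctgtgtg
MMS, ACTN1 intron 4, chr14:68911117-68911341: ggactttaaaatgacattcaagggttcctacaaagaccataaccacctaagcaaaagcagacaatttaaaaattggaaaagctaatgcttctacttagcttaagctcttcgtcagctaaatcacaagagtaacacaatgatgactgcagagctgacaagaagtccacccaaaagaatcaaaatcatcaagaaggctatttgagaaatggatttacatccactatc
MMS, SUSD6 intron 2, chr14:69669524-69669771: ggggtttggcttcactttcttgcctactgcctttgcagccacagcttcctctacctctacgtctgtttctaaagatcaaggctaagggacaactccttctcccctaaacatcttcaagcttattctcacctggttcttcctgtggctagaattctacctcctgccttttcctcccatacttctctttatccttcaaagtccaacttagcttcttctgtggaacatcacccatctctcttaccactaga

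At the untreated site shown first, in an intron of the longer RAD51B isoforms, both untreated lists and both HU lists had a peak, and the untreated fold enrichment over input was 2.59 and 2.55 in replicates 1 and 2. The APH site in RAD51B was shared with both HU lists and with MMS replicate 1, with an APH fold enrichment of 2.68 and 2.86. The site with the highest APH fold enrichment, 2.90 and 3.12, lay 26946 bp beyond ZFP36L1, which encodes an RNA-binding protein that promotes mRNA decay. HU peaks were present there in both replicates. Both leading HU sites were in the same gap between ZFP36L1 and ACTN1, the gene of the cytoskeletal cross-linker α-actinin. Their fold enrichments were 3.16 and 3.37 at the first site and 2.84 and 3.68 at the second. APH replicate 1 also had a peak at the first of these sites, and MMS replicate 1 at the second. The MMS sites lay in intron 4 of ACTN1 (2.66 and 2.95) and in intron 2 of SUSD6 (2.53 and 2.55). No untreated or APH peak covered either MMS site, and HU replicate 2 alone shared the one in ACTN1. The other replicated untreated site, 3492 bp from the splicing factor gene SRSF5 at chr14:69723211-69723408, also had peaks in both HU lists.

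The 8 lists held between 4343 and 79950 peaks, fewest in the untreated lists and most after HU. Of these the band took 15 and 12 untreated, 47 and 35 after APH, 314 and 271 after HU, and 36 and 29 after MMS. Because lists differ in size, each count was divided by the number that the mean density of that list over the assembled autosomes gives for the same length. Untreated lists stood at 3.60 and 3.19 times their autosomal mean (3.39 ± 0.297, SD, n = 2). APH lists stood at 3.06 and 2.87 (2.96 ± 0.133), and MMS lists at 3.39 and 3.18 (3.29 ± 0.146). HU lists were the highest, at 4.51 and 4.45 (4.48 ± 0.0443). All 8 lists thus held more peaks in the band than their own autosomal mean, and the untreated lists lay within the range of the treated ones. At a stricter −log10 p of at least 4 the untreated lists kept 1 and 0 peaks in the band, a mean ratio of 0.674, while the HU lists kept 125 and 105 and a mean ratio of 4.69. The autosomal mean at that threshold gives only 0.742 and 0.570 band peaks untreated, and 27.2 and 21.9 after HU. How deeply each library was sequenced is unknown, since a list gives peaks without reads.

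**Figure D1:**
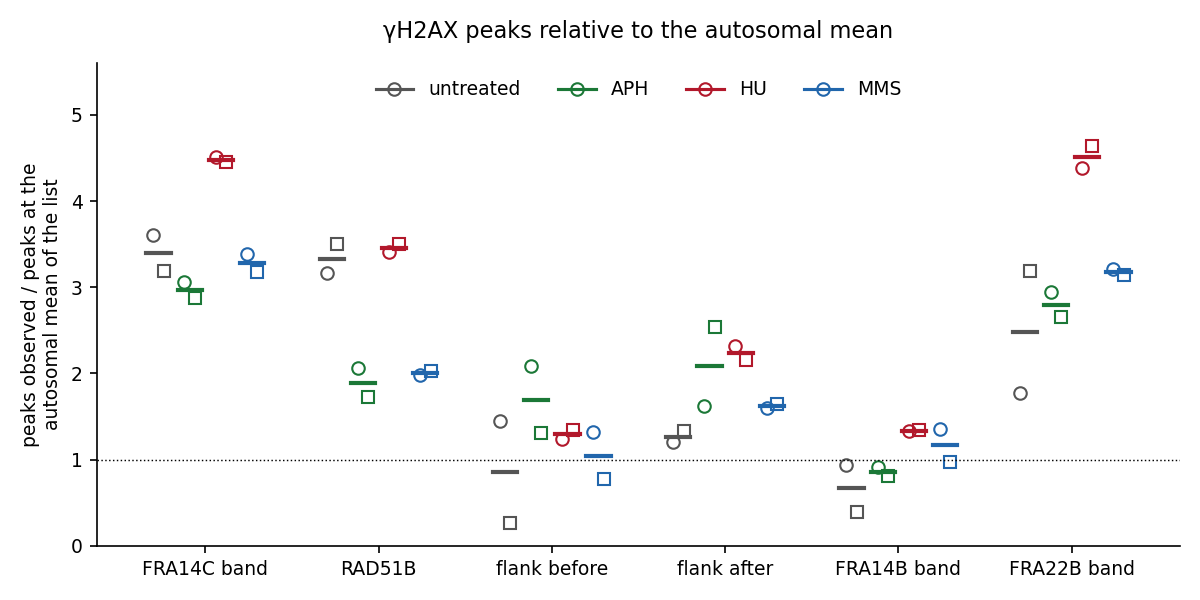
γH2AX peaks observed in 6 regions (horizontal axis) divided by the peaks expected from the autosomal mean density of the same list (vertical axis, 1 at the dotted line). Circles are replicate 1, squares replicate 2, bars the mean of both; the FRA14C band lay between 2.87 and 4.51 in every list, above both flanks of the same length, and RAD51B lay between 1.73 and 3.51.

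The adjoining chromatin held fewer peaks. In the 2.4 Mb before the band the ratio ran from 0.265 to 2.08 over the 8 lists, and in the 2.4 Mb after it from 1.20 to 2.54. FRA14B, the fragile site band next to it on the centromeric side, ran from 0.390 to 1.36. FRA22B at 22q12.2, the band most like FRA14C after HU, stood at 4.38 and 4.64 after HU, against 1.77 and 3.19 in the untreated lists. Among 108 autosomal common fragile site bands, FRA14C ranked 6 in both untreated lists, 5 in both APH lists, 2 and 3 in the HU lists and 2 in both MMS lists. Of 1138 autosomal windows as long as the band, between 1.67% (MMS replicate 2) and 5.18% (APH replicate 1) reached its ratio. The band had a GC content of 43.7%, against 41.0% over the autosomes, and 9.58 protein-coding genes per Mb against 6.93. The part of base composition and gene density in these counts was not tested.

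Peaks covered 15.5% and 13.0% of the band in the HU lists, against 3.25% and 2.68% of the autosomes. In the other lists they covered between 0.210% (untreated replicate 2) and 1.25% (APH replicate 1) of it. Over all 8 lists together, 75.2% of the band's bases lay under no peak. Merging overlapping peaks of all lists gave 489 sites, of which 332 came from 1 list, 107 from 2 lists and 1 from 6 lists. That last site, 15.4 kb at chr14:68706610-68721981 in RAD51B, joined peaks of the untreated, APH and HU lists, with no MMS peak. Peaks of all 4 conditions were joined in 1 site, and 68 sites held no HU peak. No such counts over the autosomes are given here, so it is not known whether this sharing is particular to the band.

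Within the band, peaks were unevenly spread along RAD51B. The gene covers chr14:67819779-68730218 on the plus strand (ENSG00000182185.19), 910.44 kb, and makes up 37.9% of the band. It held 5 peaks in each untreated list, 12 and 8 after APH, 90 and 81 after HU, and 8 and 7 after MMS. Relative to the autosomal mean these were 3.17 and 3.5 untreated, 2.06 and 1.73 after APH, 3.41 and 3.51 after HU, and 1.98 and 2.03 after MMS. Every list was above 1, with the APH and MMS lists below the untreated and HU lists. At a −log10 p of at least 4 RAD51B kept no peak in the untreated or MMS lists, 1 and 0 in the APH lists, and 39 and 31 in the HU lists. The autosomal mean at that threshold gives RAD51B only 0.281 and 0.216 peaks untreated and 0.561 and 0.482 after MMS. For APH it gives 0.436 and 0.771, and for HU 10.3 and 8.31. No loss of peaks at RAD51B is therefore read from the empty lists. RAD51B held a smaller share of the band's peaks than of its length in all lists but untreated replicate 2, from 22.2% in MMS replicate 1 to 33.3% in untreated replicate 1, with 41.7% in untreated replicate 2.

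Splitting the gene into 4 equal parts, a split chosen after the counts were seen, placed most of the peaks at its 3′ end. The first part held no peak in any untreated or APH list, 7 and 6 peaks after HU, and 0 and 1 after MMS. The next part was much the same, with no untreated or APH peak, 7 and 4 HU peaks, and 1 and 0 MMS peaks. In the third part the HU lists had 36 and 25 peaks, while the other 6 lists had at most 2. The last part, with 5 and 4 peaks untreated, 10 and 8 after APH, 40 and 46 after HU and 6 and 4 after MMS, stood above the autosomal mean in all 8 lists. Its ratios were 12.7 and 11.2 untreated, 6.86 and 6.92 after APH, 6.06 and 7.97 after HU, and 5.95 and 4.63 after MMS. The untreated ratios rest on 9 peaks in all. GC content moved the same way along the gene, at 37.8%, 37.9%, 41.7% and 46.5% from the first part to the last, and its part in the counts was not tested.

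**Figure D2:**
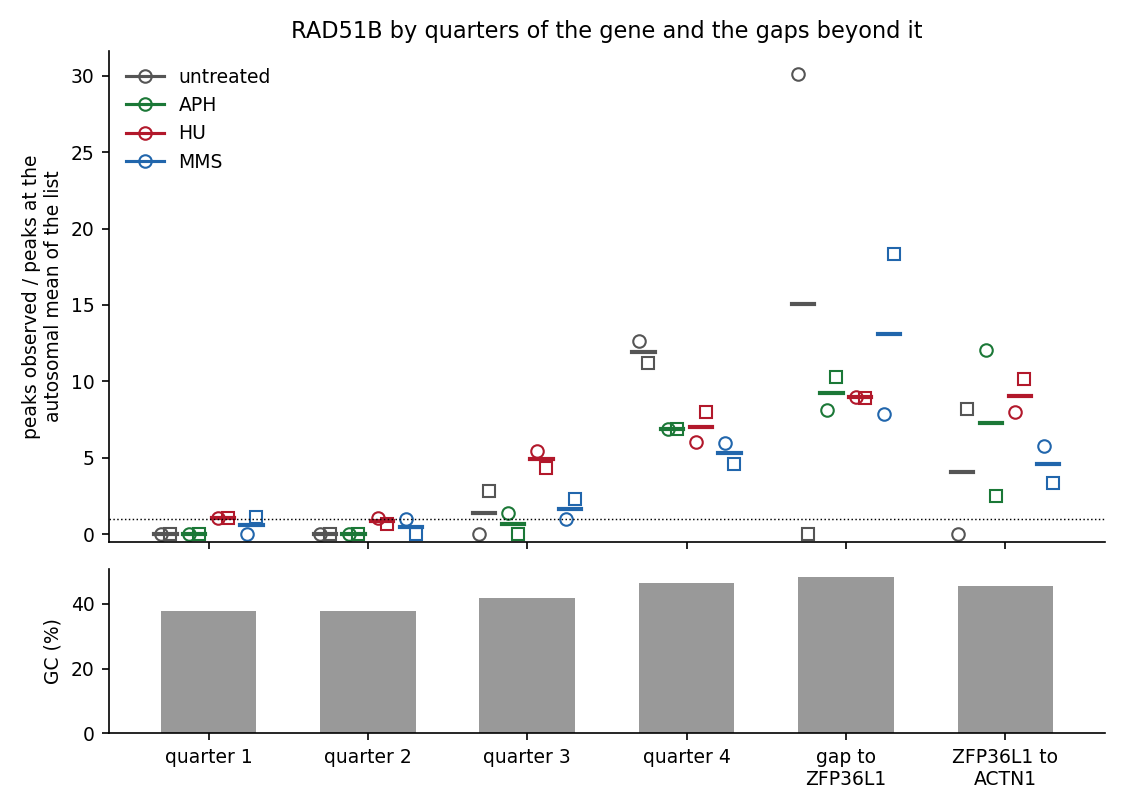
Peaks in 4 equal parts of RAD51B (labelled 1 to 4 from the 5′ end) and in the gaps on both sides of ZFP36L1, as a ratio to the autosomal mean of the list (upper panel; circles are replicate 1, squares replicate 2, bars the mean, dotted line 1) with the GC content of each part in percent (lower panel). The first parts of the gene lie at or near 0 to 1.16, the last between 4.63 and 12.7.

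The same contrast appears against the gene's isoforms. The reference (MANE) transcript of RAD51B ends at position 68478093, and longer annotated isoforms run 252.125 kb further. Inside the MANE transcript the untreated lists had no peak, the APH lists 2 and 0, the HU lists 45 and 31, and the MMS lists 2 and 3. In the extension the untreated lists had 5 peaks each, the APH lists 10 and 8, the HU lists 45 and 51, and the MMS lists 6 and 4. Most peaks of the MANE part came from its later introns after HU. Intron 7, the longest at 404.679 kb, held 10 and 8 HU peaks and 1 peak in each MMS list. Intron 8, 119.443 kb long, held 16 and 14 HU peaks, and intron 9, 56.644 kb long, held 12 and 6. Of the 90 and 81 HU peaks in RAD51B, 2 and 2 touched 1 of the 11 MANE exons, and no peak of the other 6 lists did. The share expected from the length of the exons was not computed, so no shortage at exons is read from these counts. Counting any annotated exon, 6 and 4 HU peaks, 1 peak of untreated replicate 1 and 1 of MMS replicate 1 touched one. Several non-coding transcripts overlap RAD51B, and ChIP peaks carry no strand, so a peak cannot be given to one of them.

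RAD51B was set beside the 309 protein-coding genes longer than 500 kb. After HU its peak density ranked 1 in both replicates, where the median long gene was at 0. In the untreated lists it ranked 9 and 4, in the APH lists 30 and 31, and in the MMS lists 16 and 22. HIVEP3 led both untreated lists, WWOX, the gene of the fragile site FRA16D, both APH lists, and SNX29 both MMS lists.

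Of 24 bins of 100 kb, 23 held a peak in each HU list, 9 in each untreated list, 15 and 13 in the APH lists, and 16 and 14 in the MMS lists. The exception under HU was the bin at chr14:68100001-68200000 inside intron 7 of RAD51B, which had no peak in any list. Over the autosomes 41.5% of 27459 bins had no peak in any list, against 4.17% in the band. The bins with the most HU peaks were chr14:68600001-68700000, over the 3′ part of RAD51B, with 21 and 26, and chr14:68800001-68900000, which spans the gap from ZFP36L1 to ACTN1 and the start of ACTN1 in coordinate order, with 21 and 22. The bin chr14:68700001-68800000, which holds the end of RAD51B and ZFP36L1, was among the leading bins of the untreated lists (4 and 1 peaks), the APH lists (5 and 4) and the MMS lists (3 and 4). The other leading bins were chr14:68500001-68600000 in the untreated lists (3 and 2), chr14:67400001-67500000 in the APH lists (4 and 4) and chr14:69600001-69700000 in the MMS lists (4 and 4). In the APH lists chr14:68600001-68700000 (5 and 3) tied with chr14:67400001-67500000, and the bin first in coordinate order was kept. APH, MMS and untreated lists thus shared 1 leading bin, and the tied APH bin was a leading HU bin.

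**Figure D3:**
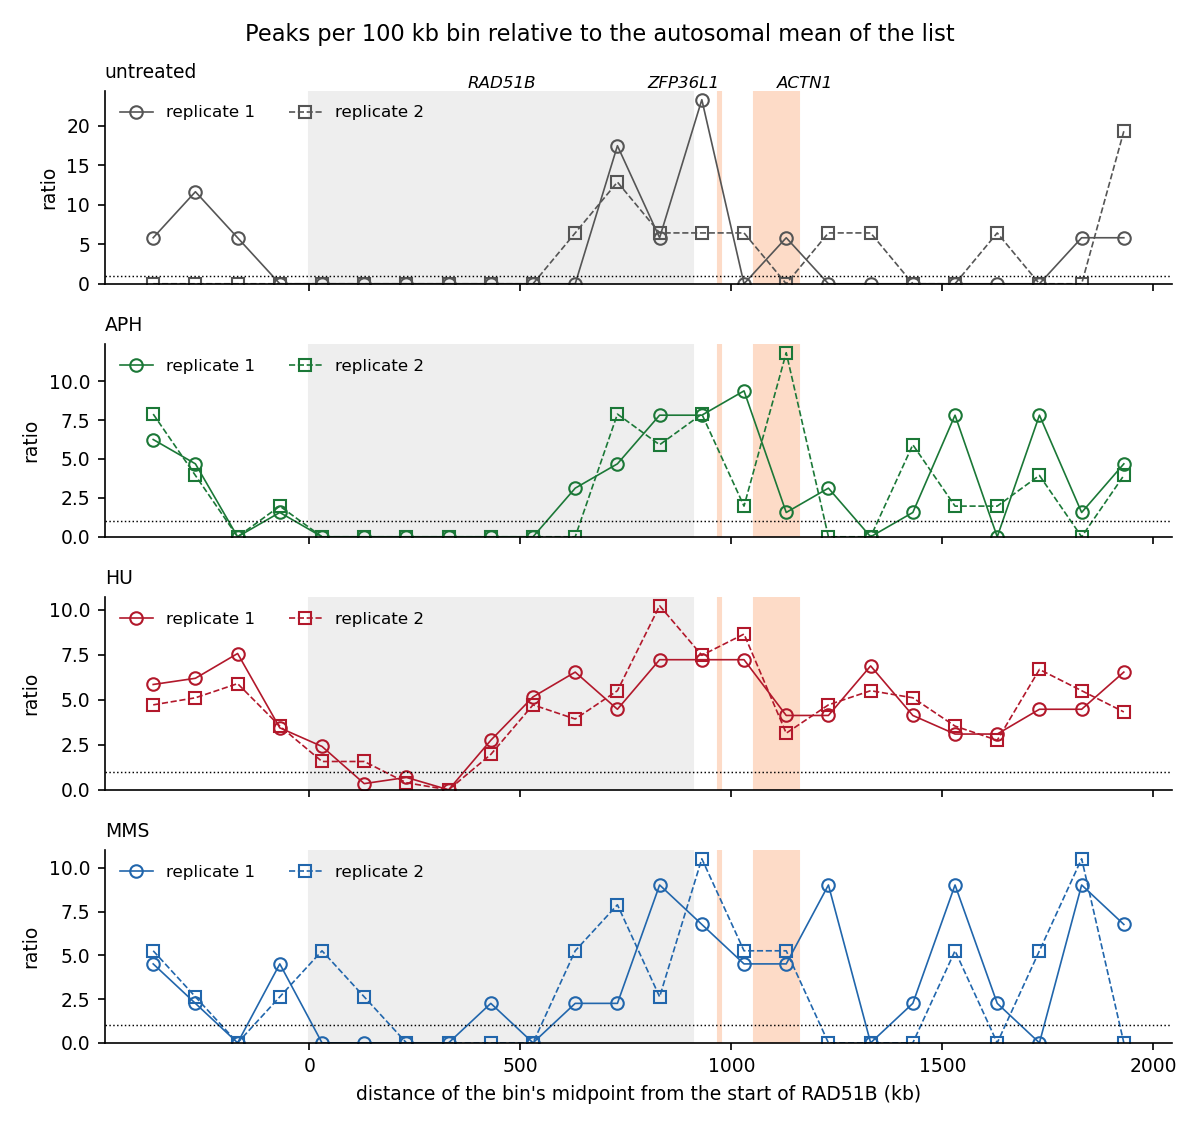
Peaks in each of the 24 bins of 100 kb of the band, as a ratio to the autosomal mean per bin of the list (vertical axis, dotted line at 1), against the distance of the bin's midpoint from the RAD51B start in kb. Rows are the 4 conditions, solid lines with circles replicate 1, dashed lines with squares replicate 2; RAD51B is shaded grey, ZFP36L1 and ACTN1 pink. HU peaks are low over the first part of RAD51B and reach 10.2 times the mean near its end.

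A bin was called higher when the lower of both treated lists was above the higher of both untreated lists, in peaks per 10000 autosomal peaks. After APH 5 of the 24 bins were called (20.8%), where 9.13% of all autosomal bins were. After HU 12 were called (50%), against 20.3%, and after MMS 3 (12.5%), against 7.29%. The 3 comparisons share the same 2 untreated lists. These calls use the counts by which the band was chosen, so nothing is read from them. Without scaling by list size, 6 bins were called after APH (11.9% of all autosomal bins), 23 after HU (29.5%) and 6 after MMS (8.43%). Across the 24 bins, peak counts followed GC content with a Pearson r of 0.745 and 0.769 in the APH lists, 0.625 and 0.703 after HU, 0.553 and 0.509 after MMS, and 0.511 and 0.192 untreated. These describe neighbouring bins of single lists.

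The gaps on both sides of ZFP36L1, picked out after their counts were seen, were densely covered. The 57.4 kb between RAD51B and ZFP36L1 held 3 and 0 untreated peaks, 3 and 3 after APH, 15 and 13 after HU, and 2 and 4 after MMS. The 77.9 kb from ZFP36L1 to ACTN1 held 0 and 1 untreated peaks, 6 and 1 after APH, 18 and 20 after HU, and 2 and 1 after MMS. HU ratios were 9.01 and 8.92 in the first gap and 7.97 and 10.1 in the second. The GC contents were 48.3% and 45.5%. ZFP36L1 itself, 8.594 kb at chr14:68787660-68796253 on the minus strand, held 2 and 1 HU peaks and 1 peak in MMS replicate 1.

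ACTN1 held 1 and 0 untreated peaks, 1 and 6 after APH, 11 and 6 after HU, and 2 and 3 after MMS. The untreated and APH lists overlapped. ZFYVE26, which encodes the endosomal and autophagy protein spastizin and lies just upstream of RAD51B on the minus strand, had no untreated peak, 1 in each APH list, 8 in each HU list, and 2 and 3 after MMS. GALNT16, a mucin-type glycosyltransferase gene, had none untreated, 4 and 3 after APH, 12 and 9 after HU, and 2 and 1 after MMS. ZFYVE26 and GALNT16 were the only band genes above both untreated lists in all 3 treatments, after scaling by list size. Neither had an untreated peak, so 1 peak in each treated list was enough. The share of all autosomal genes that meet this in all 3 treatments was not computed, so nothing is read from it. SUSD6, a membrane protein gene, had no untreated peak, 0 and 1 after APH, 14 and 14 after HU, and 3 and 4 after MMS.

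The rest of the named genes held most of their peaks in the HU lists, which are the longest, and relative to the list means the order differed between genes. TMEM229B held 2 and 0 untreated peaks, 2 and 3 after APH, 15 and 12 after HU, and 0 and 2 after MMS. Its ratio was 13.3 in untreated replicate 1, against 5.97 and 5.46 after HU. PLEKHH1 held 1 and 0 untreated peaks, 2 and 1 after APH, 10 and 5 after HU, and 1 in each MMS list, with a ratio of 10.2 in untreated replicate 1 against 6.13 and 3.499 after HU. DCAF5, a substrate receptor gene of a cullin ubiquitin ligase, held 0 and 1 untreated peaks, none after APH, 13 and 9 after HU, and 2 and 0 after MMS. SRSF5 held 0 and 2 untreated peaks, 1 and 0 after APH, 10 and 5 after HU, and 1 and 0 after MMS, with a ratio of 28.2 in untreated replicate 2 against 7.65 and 4.37 after HU. These untreated ratios rest on 1 or 2 peaks. ARG2, the gene of the mitochondrial arginase, held 8 and 4 HU peaks and none in the other 6 lists. EXD2, an exonuclease gene, held 6 and 8, also with none in the other 6 lists. ENSG00000258466 likewise had 7 and 6 HU peaks alone. PLEKHD1 had 7 and 4 HU peaks, with 1 peak in untreated replicate 2 and 1 in each APH list. ERH, which encodes a small conserved nuclear protein, had 1 peak, in HU replicate 2, and was the least marked of the 23 protein-coding genes that overlap the band. By the rule used for bins, 2 of the 23 genes were called after APH (8.70%, against 7.63% of all 19103 autosomal protein-coding genes). After HU 15 were called (65.2%, against 37.5%) and after MMS 3 (13.0%, against 8.53%). RAD51B was called in none of them after scaling. Unscaled, 3 genes were called after APH (13.0%, against 9.68%), 22 after HU (95.7%, against 46.4%) and 5 after MMS (21.7%, against 9.62%).

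Another 17 genes of a homologous recombination list are much shorter, 811.507 kb together. They held 51 and 48 HU peaks, 2.17 and 2.33 times the autosomal mean, against 3.41 and 3.51 in RAD51B. In MMS replicate 2 they stood at 4.54, above RAD51B at 2.03, and in MMS replicate 1 at 0.835, against 1.98. RAD52, which anneals single-stranded DNA, held 14 and 15 of these peaks, and RAD54L, a DNA translocase of recombination, 7 and 9. In the untreated lists the 17 genes held 3 and 1 peaks, in each APH list 5, and in the MMS lists 3 and 14. BRCA1, BRCA2 and PALB2, which act together in recombination at breaks, held at most 2 peaks in any list. Their HU ratios ran from 0 to 0.626. In MMS replicate 2 they stood at 2.09, 3.09 and 6.90, on 1 peak each, and MMS replicate 1 had no peak in them.

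The promoters examined carried no peak. The 28 RefSeq promoters of 18 protein-coding genes in the band, each 250 bases before to 50 after a transcription start, overlapped no peak in any of the 8 lists. With 28 independent promoters this would allow a share of up to 10.7% in each list. Several of the 28 overlap one another, so the share allowed is higher than that. Over all 21155 autosomal promoters 0.785% had a peak in both HU lists, and 2.16% and 1.89% had one in each. The HU peaks nearest to the 28 promoters lay between 343 bp (RDH11) and 7918 bp (SLC39A9) away, with a median of 2142 bp. The promoters had a median GC content of 61.3%, with 32.3% at the lowest, at an internal start of RAD51B. Both RAD51B windows, chr14:67823291-67823590 and chr14:67823342-67823641, lie inside the gene at the end of MANE intron 1. The promoter at the start of the gene and of the MANE transcript, position 67819779, was therefore not among the 28. One of the RefSeq promoters of ZFP36L1, the gene between the densely covered gaps, is shown as the 250 bases before the start, on the minus strand from 5′ to 3′, with CG dinucleotides in capitals (RefSeq, GRCh38). It holds 16 CG dinucleotides, and the nearest HU peak lay 1203 bp from the promoter.
ZFP36L1 promoter, chr14:68793417-68793666: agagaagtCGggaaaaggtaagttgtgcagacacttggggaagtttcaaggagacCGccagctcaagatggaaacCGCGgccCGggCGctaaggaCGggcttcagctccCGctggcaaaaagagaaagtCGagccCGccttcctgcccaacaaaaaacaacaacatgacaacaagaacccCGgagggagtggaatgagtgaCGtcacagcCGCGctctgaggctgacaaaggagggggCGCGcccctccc

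Copies of the Alu repeat, found by sequence search, made up 11.1% of the band against 8.36% of chromosome 14, and 6.62% of RAD51B. Among HU peaks of the band, 41.1% and 38.7% overlapped an Alu copy, against 53.2% and 52.8% of the HU peaks elsewhere on chromosome 14. In the other 6 lists the band share lay between 8.33% and 27.6%, on 1 to 11 peaks. Elsewhere on chromosome 14 the share in these lists lay between 16.8% and 30.2%. Untreated replicate 1 alone was higher in the band, at 20% against 16.8%. Along RAD51B the Alu share was 9.29%, 5.87%, 6.42% and 4.92% from the first part to the last, and its part in the counts was not tested.

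Few of the band's peaks recurred between replicates outside HU. In the untreated lists 2 of 15 and 2 of 12 peaks (13.3% and 16.7%) overlapped a peak of the other replicate, and over the autosomes 16% and 19.4% did. After APH the band shares were 6.38% and 8.57%, against 10.4% and 13.3%, and after MMS 5.56% and 6.90%, against 5.98% and 6.97%. After HU they were 46.2% and 53.9%, against 43.3% and 51.0%. HU was highest in the band and over the autosomes, and the APH and MMS shares of the band, on 2 or 3 peaks each, interleaved. At a q of at most 0.05, 247 of 314 and 172 of 271 HU peaks of the band remained (78.7% and 63.5%, against 78.4% and 60.3% of all autosomal HU peaks). No untreated, APH or MMS peak of the band did, where between 0.164% and 1.31% did over the autosomes, so the band was close to the background in every list. Outside HU, therefore, single peaks of the band rest on the unadjusted threshold of 1e-3.

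**Figure D4:**
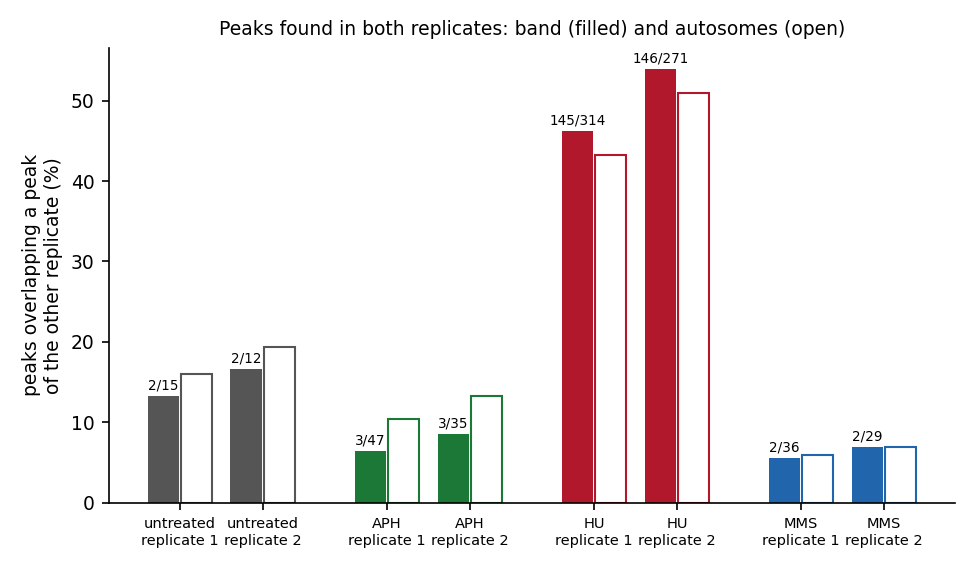
Share of peaks in percent that overlapped a peak of the other replicate of the same group, for the band (filled bars, with the number found of the number of band peaks) and over the autosomes (open bars). HU reached 46.2% and 53.9% in the band, the other lists between 5.56% and 16.7%.

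Peaks of the other conditions often coincided with HU peaks in the band. Averaged over the 4 pairings of replicates, 57.1% of untreated band peaks were overlapped by an HU peak, against 36.0% over the autosomes. For APH peaks these shares were 49.1% and 26.1%, and for MMS peaks 40.5% and 25.1%. HU peaks also covered more of the band than of the autosomes, as given above. No untreated peak of the band overlapped an MMS peak, where 10.1% of untreated peaks did over the autosomes. APH peaks overlapped 6.67% of untreated band peaks, from 0% to 20% over the pairings, against 22.8%. The untreated lists held only 15 and 12 band peaks, so these shares rest on few peaks and no separation is read from them. Of APH peaks of the band, 5.33% overlapped an MMS peak, against 5.73%.

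Fold enrichment, width and GC content of the peaks were not used to choose the band and could be tested between treated and untreated lists. The band's median fold enrichment minus the autosomal median of the same list was 0.00696 and -0.0148 untreated, -0.0242 and 0.0231 after APH, -0.0123 and 0.0205 after HU, and -0.0485 and 0.0172 after MMS. The groups overlapped, with a mean of -0.00404 in 6 treated and -0.00393 in 2 untreated lists (two-sided exact permutation test over lists, p = 1, adjusted p = 1 over 12 comparisons). The highest fold enrichment of a band peak was 3.68, in HU replicate 2.

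Median peak width in the band was 597 and 441.5 bp untreated, 611 and 616 bp after APH, 821 and 755 bp after HU, and 619.5 and 552 bp after MMS. Divided by the autosomal median of each list, treated lists averaged 1.09 and untreated lists 0.960 (exact permutation p = 0.286, adjusted p = 1). Mean widths were 594 and 420 bp untreated, 636 and 673 bp after APH, 1183 and 1154 bp after HU, and 603 and 537 bp after MMS. Untreated replicate 1 thus lay above MMS replicate 2. The autosomal mean widths were 832 and 777 bp untreated, 700 and 688 bp after APH, 1122 and 1055 bp after HU, and 576 and 578 bp after MMS. Relative to these, the 6 treated lists, from 0.908 to 1.09, all lay above the untreated ones at 0.714 and 0.541. The untreated ratios thus also reflect wide autosomal means, and they rest on 15 and 12 band peaks. That difference of 0.375 had the smallest p the design allows (exact permutation p = 0.0357), and an adjusted p of 0.429. The widest band peaks, 10219 and 10605 bp, were in the HU lists.

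The median GC content of band peaks minus the autosomal median was 0.200 and -0.900 percentage points untreated, 1.60 and 4 after APH, -0.200 and -0.400 after HU, and -0.100 and 1.60 after MMS. The APH lists lay above both untreated lists and the others overlapped them. Treated lists averaged 1.08 and untreated lists -0.350 (exact permutation p = 0.357, adjusted p = 1), and APH alone differed by 3.15 points (exact permutation p = 0.333, the smallest that 2 against 2 lists allow, adjusted p = 1).

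**Figure D5:**
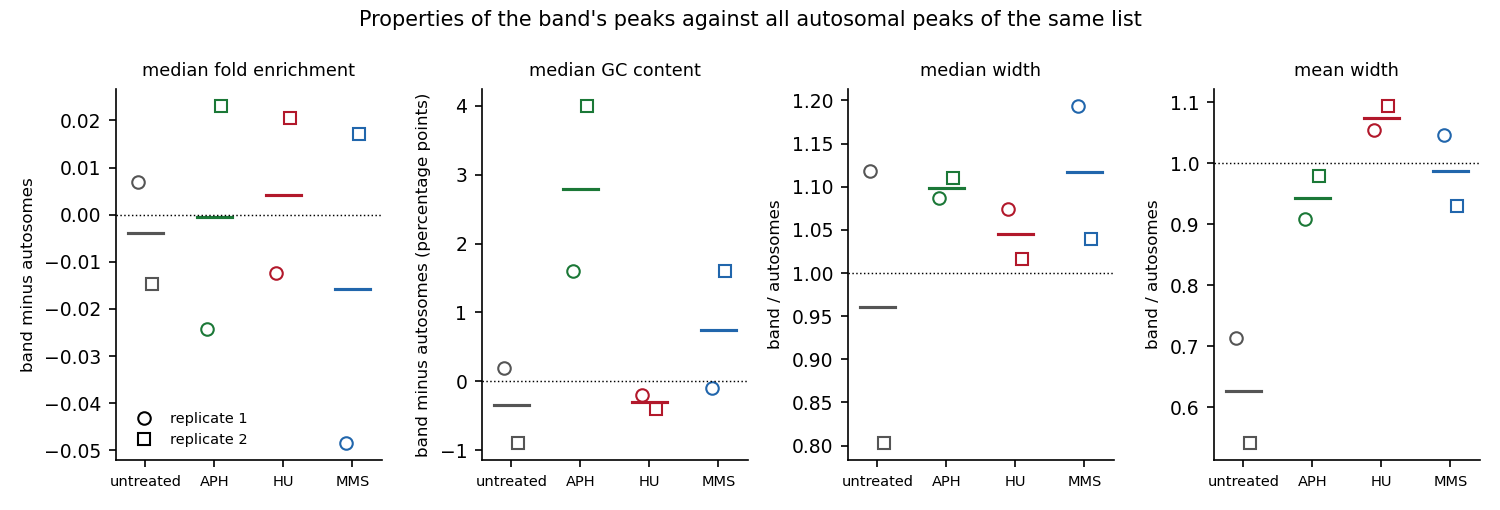
Median fold enrichment and median GC content of the band's peaks minus those of all autosomal peaks of the list, and median and mean width as a ratio to them (vertical axes), by condition. Circles are replicate 1, squares replicate 2, bars the mean, dotted lines no difference; only mean width separated all treated lists from both untreated lists, at 0.714 and 0.541.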

How the data were processed

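γH2AX ChIP-seq was measured in 8 libraries of a B-lymphoblastoid line, 2 each untreated and after APH, HU or MMS; an input library is not analysed here. The authors mapped reads to hg38 with Bowtie2, kept those of mapping quality 40 with SAMtools, removed duplicates, and called broad peaks per replicate against input with MACS2 at p 1e-3; versions are not given in the sources used here. Each deposited list holds, per peak, a score (not used), the fold enrichment as a ratio over input, and −log10 p and q-values as deposited.

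The members, gene lists and tests were chosen with earlier results of these data known. Named were RAD51B, ZFYVE26, ZFP36L1, ACTN1, the 10 other protein-coding genes with most peaks, the 2 replicated sites of highest mean fold enrichment and the 2 fullest bins per condition, sites in 6 or more lists, and a homologous recombination list, of which 1 gene is not reported here. Genes other than these were named after their values were seen. A peak counted where it overlapped a region by at least 1 bp, and in bins by its midpoint. Expected counts used assembled autosomal bases, and bins needed 80% assembled sequence. GENCODE 44 gave gene models. RefSeq promoters (GRCh38) of protein-coding genes were selected by overlap with the band, which gave promoters for 18 of its 23 genes. GC content was taken over 500 bp around peak centres. Alu copies were sought on chromosome 14 with BLAST 2.17.0. Differences over lists were tested by exact two-sided permutation with Benjamini-Hochberg adjustment over 12 comparisons. Python 3.11.15, numpy 2.4.6, pandas 2.3.3 and matplotlib 3.10.9 were used, and counting code was tested on simulated data. For a single treatment, p-values measure the spread between 2 ChIP experiments per group in 1 line. For the 6 treated lists together, that spread also holds the differences between APH, HU and MMS.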

Additional observations from a re-analysis of the deposited data

How the results depend on the processing

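The ratio of observed to expected peaks in the band stayed above 1 in every alternative but 1, and that of RAD51B in all but 3. All 4 exceptions rest on few peaks. At a −log10 p of at least 4 the untreated lists kept 1 and 0 band peaks, for a band ratio of 0.674, and RAD51B had none in the untreated and MMS lists (0). MMS also had no RAD51B peak that overlapped the other replicate (0). At that threshold the band ratio was 2.48 for MMS and 4.69 for HU, and RAD51B stood at 1.15 for APH and 3.75 for HU. With the stronger 50% of each list the band gave 2.70 (APH), 4.64 (HU) and 3.09 (MMS), and RAD51B 2.74 (untreated), 1.29 (APH) and 1.70 (MMS). Against chromosome 14 without the region the band gave 3.76 untreated, 3.16 (APH) and 4.19 (HU), and RAD51B 3.04 (HU) and 1.96 (MMS). By bases covered the band gave 2.15 untreated, 2.77 (APH) and 4.81 (HU), and RAD51B 2.41 untreated, 3.77 (HU) and 1.83 (MMS). Peaks found in both replicates gave 2.87 untreated, 1.86 (APH) and 4.76 (HU) for the band, and 3.78 untreated, 3.27 (APH) and 3.67 (HU) for RAD51B. Midpoints gave 1.88 for RAD51B after MMS. With the RefSeq gene end, an alternative added after seeing the data, RAD51B gave 2.81 untreated, 3.17 (HU) and 1.85 (MMS). Leaving out either replicate, the band ranged from 3.19 to 3.60 untreated, 2.87 to 3.06 (APH), 4.45 to 4.51 (HU) and 3.18 to 3.39 (MMS), and RAD51B from 3.17 to 3.5, 1.73 to 2.06, 3.41 to 3.51 and 1.98 to 2.03.

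The share of band peaks found in the other replicate fell to 0% untreated, 3.56% (APH), 31.6% (HU) and 4.50% (MMS) when an overlap of 50% of the peak was required. Within 1 kb it was 64.1% (HU) and 12.5% (MMS). At a −log10 p of at least 4 it was 22.5% (APH), 36.3% (HU) and 0% (MMS). The bins called higher numbered 23 (HU) and 6 (MMS) unscaled, where 29.5% and 8.43% of all autosomal bins were called. They numbered 25 (HU) and 6 (MMS) of 48 bins of 50 kb, against 17.4% and 3.76%, and 2 (APH), 20 (HU) and 1 (MMS) of 24 at a −log10 p of at least 4, against 0.615%, 16.7% and 0.626%. The cause was not tested.

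No test of a difference between treated and untreated lists passed an adjusted p of 0.05 in 33 alternatives. The difference in fold enrichment turned to 0.00734 with means over peaks, and ranged from -0.0110 to 0.0108 without 1 list, turning positive without untreated, APH, HU or MMS replicate 1 (0.0108, 0.00392, 0.00154 and 0.00878). The width difference ranged from -0.0311 to 0.284, turning negative without untreated replicate 2, and the GC difference from 0.850 to 1.98. The tests could not be made at a −log10 p of at least 4, which leaves untreated replicate 2 without a band peak. In scaled counts over 27459 bins, same-numbered lists did not deviate together (correlations from -0.0369 to 0.0315). The bins are sparse, with means of 0.172 and 0.155 peaks in the untreated lists. Replicate 1 held more peaks than replicate 2 in every group. Whether same-numbered lists shared a batch was not tested. With the number as a replicate block, the exact permutation p-values were 1 for fold enrichment (-0.000113), 0.25 for width (0.126) and 0.438 for GC content (1.43), with all adjusted p = 1 and 16 arrangements.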
